A study of Macaca fascicularis with 64 samples.

Results

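The expression of 5 metabolic genes that are known as disallowed in β-cells, LDHA, LDHB, SLC16A1, ACOT7 and OAT, was described across the 4 endocrine cell types of the macaque islet and between young and old animals. The genes were named from what is known of mature β-cells, at a time when other results of these data were known. Of the 5, 4 had a row among the 21041 macaque genes of the count tables, and LDHA is not analysed here. LDHB, ACOT7 and OAT had enough counts for the tests between types, and SLC16A1 was too low for the edgeR tests.

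Mature β-cells sense glucose by oxidising almost all of the pyruvate it gives in mitochondria, and the ATP made there closes potassium channels and starts insulin secretion. Disallowed genes are genes that most tissues use and that β-cells keep silent. The products of LDHA, LDHB and SLC16A1 would draw pyruvate into lactate or let lactate and pyruvate from the blood start insulin secretion. LDHA and LDHB encode the subunits of lactate dehydrogenase, which interconverts pyruvate and lactate. SLC16A1 encodes MCT1, a carrier of lactate and pyruvate across the plasma membrane, whose failure to be silenced in β-cells causes exercise-induced hyperinsulinism in humans. ACOT7 encodes a thioesterase that splits long-chain acyl-CoA into fatty acid and coenzyme A. OAT encodes mitochondrial ornithine aminotransferase, which links ornithine to glutamate and proline.

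The study compared islet ageing in healthy, non-diabetic cynomolgus monkeys, with 8 young animals of 4 to 6 years and 8 old animals of 18 to 21 years, 4 females and 4 males in each age group and no treatment or genetic change in any. Islets came from the tail of the pancreas, cells were picked by mouth pipette, and each monkey gave 4 libraries made by a modified STRT-seq protocol with unique molecular identifiers (UMIs), which count molecules and not reads. Each of the 16 monkeys was processed on a day of its own, so differences between monkeys and between days cannot be told apart. The monkeys were the replicates in every test.

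Of 6141 barcodes, 5908 cells had over 800 genes and over 10000 UMIs, with between 20719761 and 34053080 UMIs per monkey. Cells were assigned to the type of their highest hormone among GCG (glucagon), INS (insulin), SST (somatostatin) and PPY (pancreatic polypeptide), which gave 4503 α-cells, 1219 β-cells, 112 δ-cells and 74 PP-cells. The study also filtered cells on the rate of mapped reads, kept fewer cells and typed them by clustering. That filter was not applied here, and every retained cell was given an endocrine type. Without the hormones that set the types, 5 of 7 α-cell markers, 5 of 7 β-cell markers, 3 of 3 δ-cell markers and 1 of 2 PP-cell markers had their highest mean level in their own type. PP-cells of old monkeys had SLC6A4 beside PPY, while AQP3 was highest in α-cells. The 2 young monkeys with at least 5 PP-cells had no SLC6A4 in them. The median depth per cell was 64894 UMIs in α-cells, 74425 in β-cells, 43776 in δ-cells and 45772.5 in PP-cells. The types were not free of each other's RNA. GCG reached 22849 ± 7317 counts per 1000000 UMIs of macaque genes (CPM) in β-cells against 76263 ± 9702 in α-cells (mean ± SD, n = 16), and in 481 of the 1219 β-cells INS was under 3 times the next hormone, as was SST in 46 δ-cells and PPY in 53 PP-cells. Levels are given below as CPM, where the UMIs of all cells of 1 type and 1 monkey were added up if there were at least 5 such cells. This left 16 monkeys with α- and β-cells, 11 with δ-cells and 6 with PP-cells. CPM is compared between cells and monkeys for 1 gene at a time, never between genes.

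LDHB, the heart-type lactate dehydrogenase subunit, was high in α-cells and low in β-cells and δ-cells. In α-cells it ran from 47.1 CPM in young male 4 to 237 CPM in young male 3, with a median of 72.8. In β-cells it ran from 1.21 CPM in old male 4 to 32.4 CPM in young male 2, with a median of 7.91. The highest β-cell value lay below the lowest α-cell value, and LDHB was lower in β-cells in 16 of 16 monkeys. In δ-cells LDHB ran from 0 to 73.5 CPM with a median of 2.83, and 9 of the 11 monkeys had 17.1 CPM or less. The other 2 were old female 2, at 73.5 CPM from 41 UMIs in 11 cells of which 1 cell held 19, and young male 2, at 61.4 CPM from 26 UMIs that were all in 1 cell of 12. In PP-cells the level was 2.13 and 8.07 CPM in the 2 young monkeys and 28.5, 50.0, 55.5 and 119.8 CPM in the 4 old ones, so that the PP-cell range lay across those of all other types.

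ACOT7, the acyl-CoA thioesterase, was low in β-cells alone among the 4 types. In α-cells it ran from 78.0 to 201 CPM with a median of 109.0, and in β-cells from 8.54 CPM in old female 4 to 30.9 CPM in young female 1 with a median of 15.8. In δ-cells it ran from 29.1 to 283 CPM with a median of 141, and in PP-cells the values were 53.8, 67.1, 122, 154, 162 and 351 CPM. The β-cell range lay below that of α-cells and of PP-cells and met that of δ-cells only at its top. Within each monkey the β-cell value was the lower one in 16 of 16 comparisons with α-cells, 11 of 11 with δ-cells and 6 of 6 with PP-cells.

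OAT, the ornithine aminotransferase, was not low in β-cells. It ran from 49.8 CPM in young female 2 to 206 CPM in young male 3 in β-cells, with a median of 128, and from 59.5 to 110 CPM in α-cells, with a median of 95.2. In δ-cells it ran from 38.8 to 148 CPM with a median of 82.9 and in PP-cells from 37.0 to 173 CPM with a median of 97.7. The ranges of all types overlapped, and the β-cell value was above the α-cell value in 14 of 16 monkeys and above the δ-cell value in 8 of 11.

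**Figure D1:**
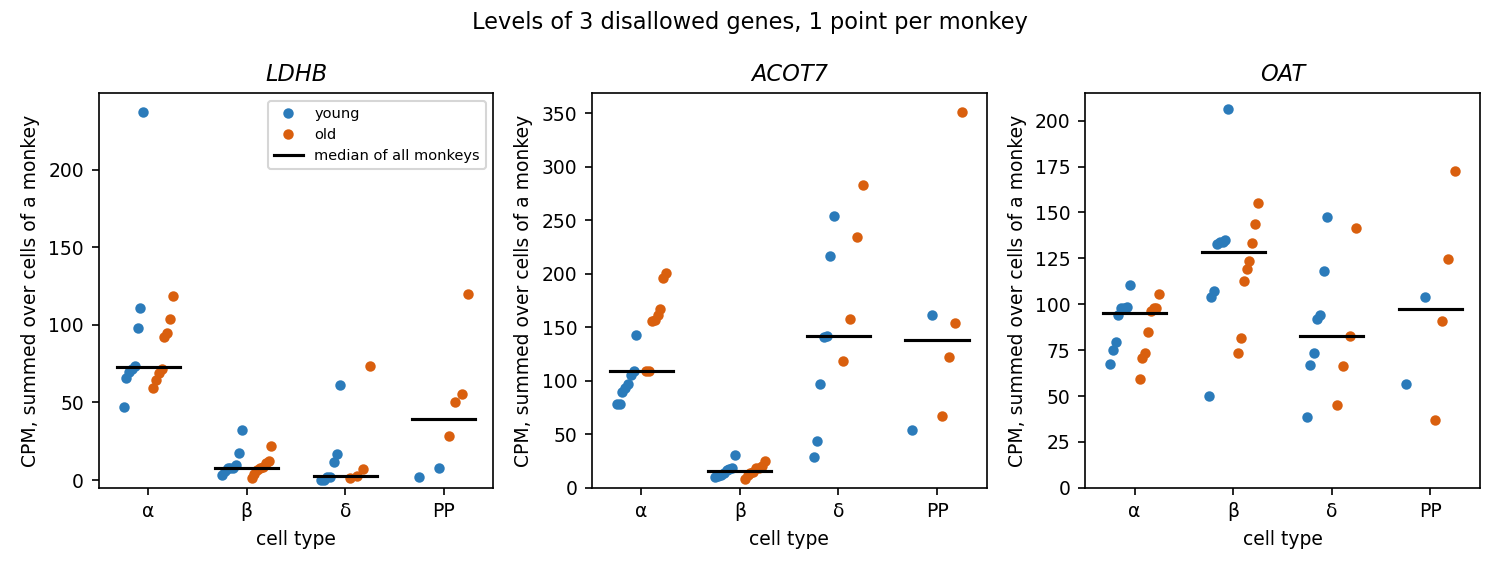
Levels of LDHB, ACOT7 and OAT by cell type, as CPM per monkey and type (linear axes), 1 point per monkey, young in blue and old in orange, with a black line at the median. LDHB is low in β- and δ-cells, ACOT7 only in β-cells, and OAT overlaps in all types.

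The differences between types were tested with edgeR's quasi-likelihood test with the monkey as a block, and adjusted p-values are Benjamini-Hochberg values over the 12899 genes tested. A negative log2 fold change means lower in β-cells. Between β- and α-cells, 2 of the 3 members tested were called, where 25% of all genes were. LDHB differed by -3.33 (SE 0.37, adjusted p = 2.7e-10), a 10.1-fold lower level in β-cells. ACOT7 differed by -2.97 (SE 0.21, adjusted p = 8.0e-17), a 7.83-fold lower level. OAT differed by 0.44 (SE 0.19, adjusted p = 0.074), and the 95% interval of its difference was from 0.07 to 0.82. The OAT difference passed the threshold with DESeq2 (0.41, adjusted p = 0.031), without the 4 hormones (0.51, adjusted p = 0.035), with at least 20 cells per sum (0.48, adjusted p = 9.2e-05), with spike-in scaling (0.65, adjusted p = 0.0075) and without young female 2 (0.50, adjusted p = 0.043), so its call rested on the settings and its direction did not.

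Against δ-cells, ACOT7 was lower in β-cells by -3.03 (SE 0.24, adjusted p = 1.0e-14), the 1 of 3 members called where 19.8% of all genes were. LDHB did not differ detectably between β- and δ-cells, at -0.06 (SE 0.49, adjusted p = 0.96) with a 95% interval from -1.05 to 0.94, and without old female 2 the value was 0.65. OAT differed by 0.58 (SE 0.23, adjusted p = 0.063) and passed the threshold in cells thinned to 10000 UMIs (0.97, adjusted p = 0.0054) and with spike-in scaling (1.26, adjusted p = 2.9e-05), and also without old female 1, young female 2 or young female 3 (0.72, 0.65 and 0.70). Against PP-cells, LDHB was lower by -2.30 (SE 0.56, adjusted p = 0.0027) and ACOT7 by -3.11 (SE 0.29, adjusted p = 4.6e-12), 2 of 3 members where 17.2% of all genes were called, and OAT was at 0.21 (SE 0.29, adjusted p = 0.66). With spike-in scaling OAT was at 0.89 and passed the threshold (adjusted p = 0.019), the median of all genes being 0.91. LDHB was lower in β- than in PP-cells in 5 of 6 monkeys. Its PP-cell mean was 5.10 CPM in the 2 young and 63.5 CPM in the 4 old monkeys. Comparisons of LDHB with PP-cells therefore rest mostly on old monkeys.

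Among the 3 types other than β-cells, only LDHB gave a call. It was higher in α-cells than in δ-cells by 3.28 (SE 0.49, adjusted p = 9.6e-07), 1 of 3 members where 23.2% of all genes were called. In δ-cells it was lower than in PP-cells by -2.24 (SE 0.60, adjusted p = 0.010), 1 of 3 members where 10.3% of all genes were called, but that call was lost in thinned cells (-1.62, adjusted p = 0.10), without the monkey block (-1.49, adjusted p = 0.081), without old female 1 (-1.77, adjusted p = 0.069) and without old male 2 (-1.69, adjusted p = 0.093). Between α- and PP-cells no member was called by edgeR, at an unadjusted p under 0.05 or by DESeq2, where edgeR called 6.61% of all genes, and LDHB stood at 1.04 (SE 0.55, adjusted p = 0.26). The median log2 fold change of all genes was -0.11 for β- against α-cells, 0.35 for β- against δ-cells, 0.26 for β- against PP-cells and 0.47 for α- against δ-cells. With spike-in scaling the same medians were 0.09, 1.02, 0.91 and 0.93, so the differences of LDHB from δ-cells and of OAT from δ- and PP-cells are to be read against those shifts, while the ACOT7 and LDHB differences called above were larger than any of them.

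**Figure D2:**
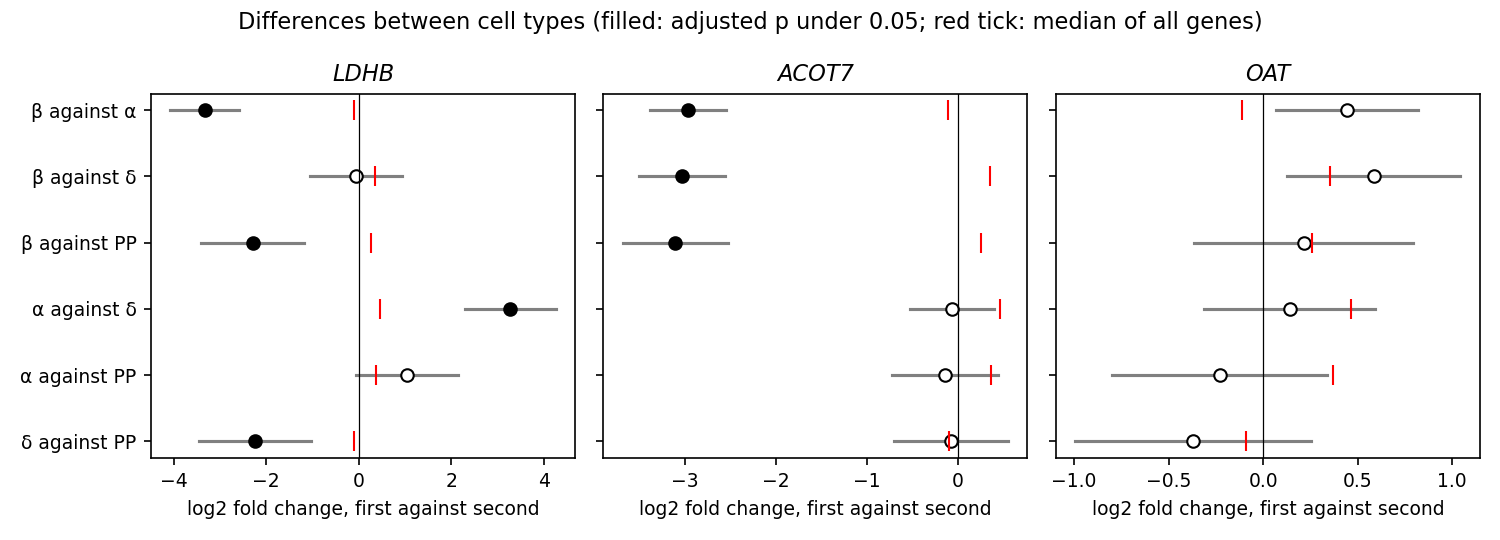
Log2 fold changes of LDHB, ACOT7 and OAT for each pair of cell types (edgeR, first type against second), with 95% intervals, filled points for adjusted p under 0.05 and a red tick at the median of all genes tested. The 3 comparisons of ACOT7 with β-cells lie near -3, and LDHB is at -0.06 between β- and δ-cells.

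The shares of cells with at least 1 UMI were compared between β- and α-cells after each cell was thinned to 10000 UMIs, which leaves out 45 shallower cells. For LDHB the mean share per monkey was 6.89% ± 4.22 in β-cells against 33.9% ± 7.68 in α-cells (SD, n = 16), lower in 16 of 16 monkeys. For ACOT7 it was 12.6% ± 6.17 against 46.2% ± 10.9, again lower in 16 of 16. Both differences gave p = 3.05e-05 when the signs of the 16 differences were flipped in every way (an exact, two-sided permutation test, unadjusted), which is the smallest that test can give. For OAT it was 50.3% ± 11.7 in β-cells against 40.0% ± 7.27 in α-cells, higher in 14 of 16 monkeys (p = 0.00015 in the same exact permutation test). Without thinning, the β- and α-cell shares were 28.4% and 57.0% for LDHB, 51.5% and 71.6% for ACOT7, and 82.0% and 73.2% for OAT. The α-cell transcription factor gene IRX2 had a UMI in 32.6% ± 14.3 of thinned β-cells, in 81.2% of unthinned ones and in 85.6% of thinned α-cells. A share depends on the level of its gene, so the share of IRX2 is no yardstick for those of LDHB and ACOT7. With RNA of other types present, the shares are not a count of β-cells that express these genes, and that count was not tested.

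The remaining LDHB and ACOT7 of β-cells was in the range of α-cell genes. As a percent of the mean level in α-cells, the level in β-cells was 11.3% for LDHB and 12.8% for ACOT7. Of the α-cell markers, 7 gave 8.50% for IRX2, 9.83% for GC (vitamin D binding protein), 14.0% for TM4SF4, 30.0% for GCG, 35.0% for LOXL4, 44.9% for DPP4 and 48.0% for TTR (transthyretin). Both disallowed genes thus stood between GC and TM4SF4, and OAT stood at 138%. When the β-cells of each monkey were divided at their median GCG level, ACOT7 was at 14.5 ± 5.86 CPM in the cells with less GCG and 19.6 ± 7.99 CPM in the cells with more, higher in 12 of 16 monkeys. LDHB was at 9.75 ± 7.54 and 11.1 ± 10.8 CPM, higher in 13 of 16 monkeys, and OAT at 126 ± 40.9 and 112 ± 34.5 CPM, lower in 12 of 16. IRX2 moved from 34.6 to 50.4 CPM and GCG itself from 17881 to 32166 CPM. INS was also higher in the cells with more GCG, at 83237 against 54553 CPM. How much of the LDHB and ACOT7 of β-cells came from α-cell RNA was not tested.

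**Figure D3:**
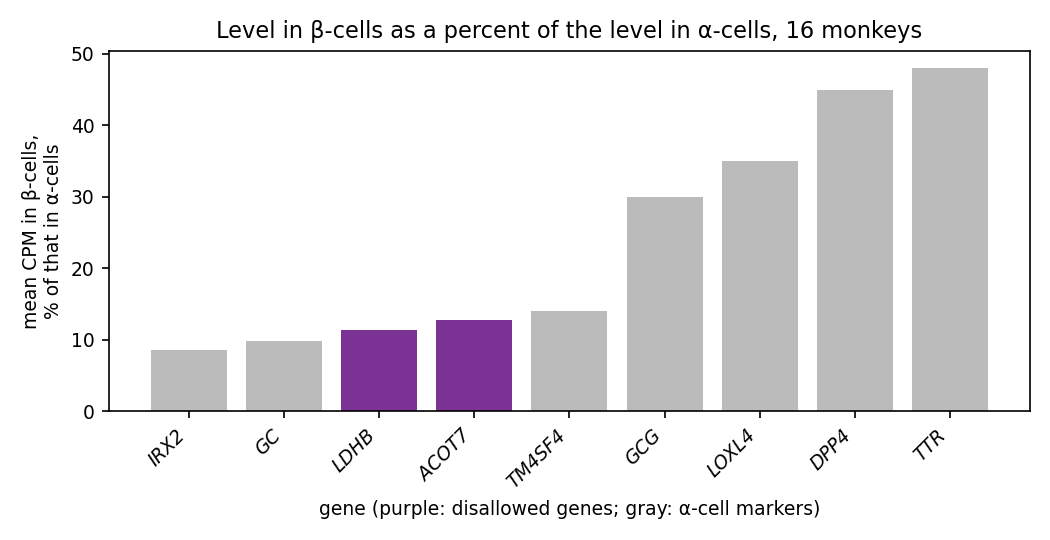
Mean CPM in β-cells as a percent of mean CPM in α-cells over 16 monkeys, for LDHB and ACOT7 (purple) and 7 α-cell markers (gray), on a linear axis from 0. LDHB at 11.3% and ACOT7 at 12.8% lie among the markers, between GC at 9.83% and TM4SF4 at 14.0%.

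By the purity of the cells, pooled over monkeys, OAT was at 118 CPM in the 481 β-cells with INS under 3 times the next hormone and at 130 CPM in the 718 with 3 to 10 times. ACOT7 was at 19.6 and 13.7 CPM in the same cells, and LDHB at 9.68 and 10.7 CPM. In δ-cells ACOT7 was at 112 CPM in the 46 cells with SST under 3 times the next hormone and at 198 CPM in the 63 with 3 to 10 times. In the purest cells, with the highest hormone 10 or more times the next, the counts were few: the 20 β-cells had 1 UMI of LDHB, 10 of ACOT7 (12.8 CPM) and 246 of OAT (315 CPM), and the 3 δ-cells had 0 UMIs of LDHB and ACOT7 and 1 of OAT. The 53 PP-cells with PPY under 3 times the next hormone had 47.4 CPM of LDHB and the other 21 had 34.8 CPM.

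SLC16A1, the gene of MCT1, was almost absent from every type. Of 68 UMIs in all 5908 cells, 8 were in 7 of 4503 α-cells, 26 in 3 of 1219 β-cells, 1 in 1 of 112 δ-cells and 33 in 1 of 74 PP-cells. The exact 95% binomial intervals of the shares of cells were from 0.0625% to 0.320% in α-cells and from 0.0508% to 0.718% in β-cells, and they cover counting error only. A single β-cell of old female 4 held 23 UMIs and the PP-cell of young female 1 held 33, together 56 of the 68. Both of these cells carried markers of stellate cells (COL1A1, COL1A2, COL3A1, DCN and PDGFRB), at summed levels of 3665 and 4113 CPM, where the 99th percentile of all cells was 221 CPM. Of the 60 cells above that percentile, these 2 were the only ones with a UMI of SLC16A1. Leaving those 2 cells aside, 12 UMIs in 10 cells remained for all 4 types. The shares of unthinned cells with a UMI did not differ detectably between β- and α-cells at this depth (exact permutation test over 16 monkeys, unadjusted p = 0.80). The same test found no detectable difference in thinned cells, nor in thinned cells with the highest hormone at least 3 times the next. Beyond these shares, no difference of SLC16A1 was tested.

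Within a type, the counts were uneven from cell to cell. In α-cells the 10% of cells with most LDHB UMIs held 57.2% of them, the median α-cell had 1 UMI and the highest 643. For ACOT7 the top 10% held 48.9% with a median of 3 UMIs and a highest of 348, and for OAT 49.1% with a median of 2 and a highest of 156. In β-cells the median was 0 UMIs for LDHB and ACOT7 and 6 for OAT, and the highest counts were 47, 45 and 103. In thinned α-cells ACOT7 was found in 50.9% of cells with LDHB and in 44.4% of cells without, a direction seen in 13 of 16 monkeys, and OAT in 42.4% and 38.2%, seen in 10 of 16. On the log2(CPM + 1) scale, the SD between the libraries of a monkey in α-cells was 0.30 for LDHB, 0.32 for ACOT7 and 0.31 for OAT, and the SD between monkeys was 0.54, 0.44 and 0.26. In β-cells, with fewer cells per library, the SD between libraries was 1.04, 0.81 and 0.57 and the SD between monkeys 0.94, 0.41 and 0.39. Only for LDHB and ACOT7 in α-cells was the SD between monkeys the larger one.

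By edgeR, age gave no call on any member in any type. In α-cells ACOT7 had the largest difference of the 3. It ran from 78.0 to 143 CPM with a median of 95.2 in the 8 young monkeys and from 109.0 to 201 CPM with a median of 159 in the 8 old monkeys. The groups overlapped, but 8 of 8 old monkeys lay above the young median. By sex, the means were 106 ± 27.8 CPM in young and 145 ± 44.8 CPM in old females (SD, n = 4). In males they were 92.5 ± 11.5 CPM in young and 169 ± 18.9 CPM in old animals (SD, n = 4). The age effect did not differ detectably between the sexes, at -0.46 in females against males (SE 0.29, unadjusted p = 0.13, adjusted p = 0.92 by edgeR). The log2 fold change of old against young was 0.65 (SE 0.15, 95% interval from 0.33 to 0.97), with an unadjusted p of 0.00047 and an adjusted p of 0.48 by edgeR. DESeq2 gave 0.65 with an adjusted p of 0.033, and an exact permutation test over monkeys gave 0.62 with an unadjusted p of 0.0012. In α-cells edgeR called 0% of 12916 genes and 0 of 3 members, 886 genes and 1 member had an unadjusted p under 0.05, and DESeq2 called 23 genes, ACOT7 among them. Over the alternatives of the edgeR and DESeq2 fits the fold change was between 0.61 and 0.67, and with each monkey left out between 0.57 and 0.74.

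LDHB in α-cells ran from 47.1 to 237 CPM (median 72.5) in young and from 59.6 to 119 CPM (median 82.2) in old monkeys, with a log2 fold change of -0.22 (SE 0.23, adjusted p = 0.89). Without young male 3 the fold change was 0.05. OAT in α-cells ran from 67.5 to 110 CPM (median 95.9) in young and from 59.5 to 106 CPM (median 90.7) in old monkeys, at -0.09 (SE 0.13, adjusted p = 0.92). The young and old ranges of both genes overlapped throughout.

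In β-cells LDHB was at 11.4 ± 9.40 CPM in young and 9.06 ± 6.23 CPM in old monkeys, ACOT7 at 16.2 ± 6.69 and 16.5 ± 5.24 CPM, and OAT at 125 ± 43.6 and 118 ± 28.4 CPM (SD, n = 8). The log2 fold changes of old against young were -0.31 (95% interval from -1.43 to 0.81), -0.01 (from -0.69 to 0.66) and -0.08 (from -0.52 to 0.35), with an adjusted p of 0.999 for each by edgeR. None of the 3 had an unadjusted p under 0.05 or was called by DESeq2, while edgeR called 0.047% of all genes in that comparison. GCG in the same β-cells was at 25988 ± 7941 CPM in young and 19711 ± 5400 CPM in old monkeys, and its part in these values was not tested.

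**Figure D4:**
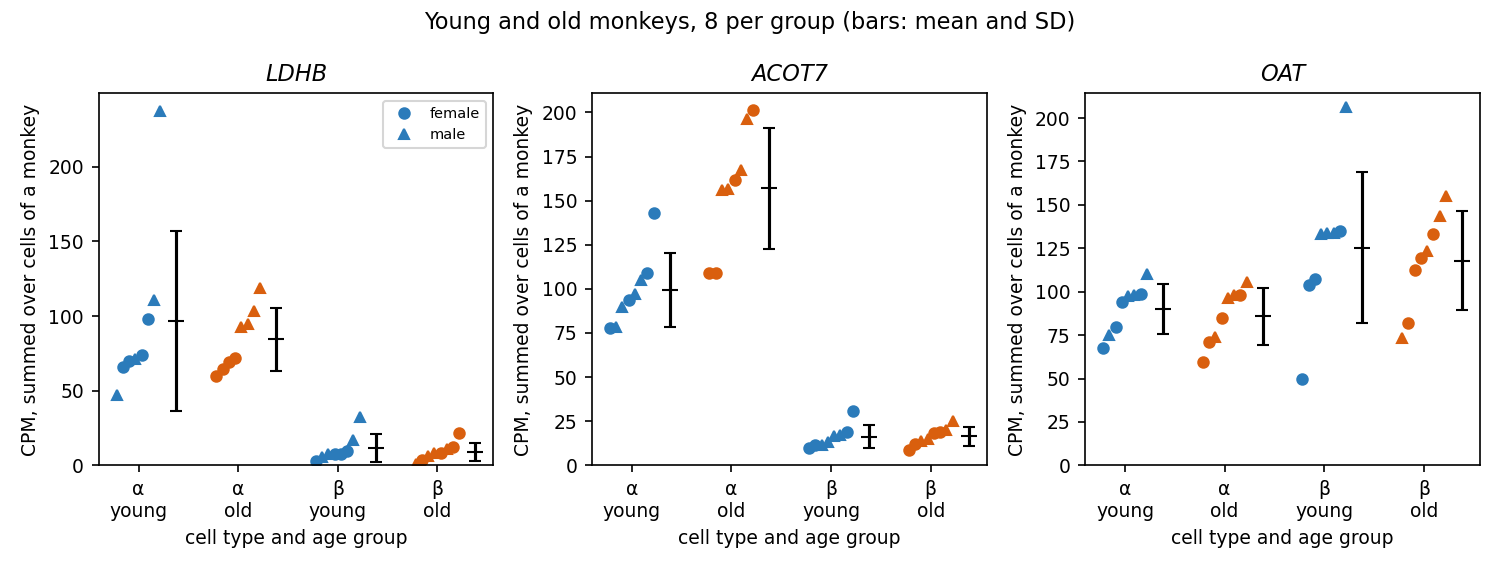
CPM of LDHB, ACOT7 and OAT in α- and β-cells of 8 young (blue) and 8 old (orange) monkeys on linear axes, circles for females and triangles for males, with mean and SD beside each group. ACOT7 in α-cells has a median of 95.2 CPM in young and 159 CPM in old monkeys with overlapping ranges, and young male 3 stands apart in LDHB of α-cells at 237 CPM.

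The age difference of ACOT7 was then compared between β- and α-cells in 1 fit. The difference of the 2 log2 fold changes was -0.64 (SE 0.24, unadjusted p = 0.012, adjusted p = 0.72 by edgeR), and with INS or GCG at least 3 times the next hormone it was -0.07. edgeR and DESeq2 called 0 of 3 members there, 1 had an unadjusted p under 0.05, and edgeR called 0% of all genes (806 had an unadjusted p under 0.05 and DESeq2 called 10). In δ-cells ACOT7 was at 132 ± 83.4 CPM in 7 young and 198 ± 74.0 CPM in 4 old monkeys. LDHB did not pass the filter on low counts there, and an exact permutation test gave a difference of 0.65 on the log2(CPM + 1) scale with an unadjusted p of 0.645. Neither tool called ACOT7 or OAT (0% of all genes called by edgeR, 209 at an unadjusted p under 0.05, 3 by DESeq2). In PP-cells LDHB differed by 3.95 (SE 1.62, unadjusted p = 0.019, adjusted p = 0.77 by edgeR), from 2 young monkeys with 4 UMIs in all and 4 old monkeys with 137. The exact permutation test over these 6 monkeys gave p = 0.067, the smallest it allows, and in PP-cells edgeR called 0% of all genes (394 at an unadjusted p under 0.05, 2 by DESeq2).

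Between the sexes, LDHB in α-cells was at a log2 fold change of -0.59 in females against males (SE 0.23, unadjusted p = 0.022, adjusted p = 0.81 by edgeR). Without young male 3 it was -0.32, and without cells high in markers of other types -0.34. The 4 old females ran from 59.6 to 71.9 CPM and the 4 old males from 92.5 to 119 CPM. Young females ran from 65.7 to 98.0 CPM and young males from 47.1 to 237 CPM. No member was called between the sexes in α- or β-cells (0% of all genes in each by edgeR) or in the difference of the age effect between the sexes, where edgeR called 0.00774% of all genes in α-cells and 0% in β-cells. In these 4 comparisons DESeq2 called no member, and LDHB between the sexes in α-cells was the only member with an unadjusted p under 0.05.

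Across the 16 monkeys, the α- and β-cell levels of the 3 genes were compared on the log2(CPM + 1) scale. For OAT, Pearson's r was 0.60 (permutation p = 0.013) and Spearman's rho 0.79 (permutation p = 0.00056), and r was 0.57 without the 2 monkeys farthest from the median of α-cells, 0.45 within the young and 0.85 within the old. With the highest hormone at least 3 times the next, r was 0.45 over 14 monkeys (permutation p = 0.12) and rho 0.77 (permutation p = 0.0019). In thinned cells r was 0.55 (permutation p = 0.027) and rho 0.44 (permutation p = 0.087) for OAT, 0.30 and 0.45 for LDHB (permutation p = 0.25 and 0.079), and 0.44 and 0.38 for ACOT7 (permutation p = 0.077 and 0.15). For LDHB r was 0.27 (permutation p = 0.30) with rho 0.23 (permutation p = 0.40), and for ACOT7 0.34 (permutation p = 0.20) with rho 0.41 (permutation p = 0.12). Without the 2 farthest monkeys these were 0.11 and 0.41, within the young 0.60 and 0.59, and within the old -0.27 and 0.35. The p-values are two-sided and unadjusted, and the differences between the 3 genes were not tested. The 2 types of a monkey share their libraries and processing day.

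The genes whose levels ran most like those of the members were found over the 49 sums of a monkey and type, among 8215 genes with a mean of at least 10 CPM. For LDHB these were ECHDC3 (Pearson's r 0.76), MAOB (0.72), which encodes monoamine oxidase B, and ANXA2 (0.72), an annexin. MAOB had a mean of 94.9 CPM in α-cells and 7.67 CPM in β-cells. For ACOT7 they were DPP6 (0.87), a subunit associated with potassium channels, FXYD3 (0.79) and CACNA2D2 (0.79), a calcium channel subunit. DPP6 had means of 99.2 CPM in α-cells, 9.55 in β-cells, 155 in δ-cells and 80.1 in PP-cells, lowest in β-cells and highest in δ-cells. For OAT the likeness was weaker, with GDAP1 (0.65), STARD4 (0.62) and NUDT8 (0.59). The members were little alike among themselves, with r of 0.37 between LDHB and ACOT7, 0.07 between LDHB and OAT and -0.33 between ACOT7 and OAT. These are descriptions over sums that share monkeys and types, without a test.

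Of 17 other genes known as disallowed in β-cells, 11 were tested between β- and α-cells. Of these edgeR called 1 higher in β-cells and 2 lower, near the 25% of all genes called in that comparison. DESeq2 called 4 of the list and 3948 of all genes. At an unadjusted p under 0.05 by edgeR stood 6 of the list and 4444 of all 12899 genes tested. The list had a median log2 fold change of -0.98 beside -0.11 for all genes. ZFP36L1, an RNA-binding protein gene, was lower by -2.63 (SE 0.38, adjusted p = 1.6e-07), at 4.92 ± 1.99 CPM in β-cells and 33.6 ± 22.3 CPM in α-cells. IGFBP4, an inhibitory IGF-binding protein gene, was higher by 2.02 (SE 0.52, adjusted p = 0.0025), at 22.9 ± 26.3 against 5.08 ± 6.37 CPM. IGFBP4 was also the 1 gene of the list called between the ages in β-cells, where 7 were tested and edgeR called 0.047% of all genes. It was at 43.3 ± 22.9 CPM in old and 2.62 ± 3.33 CPM in young monkeys (log2 fold change 4.09, SE 0.56, adjusted p = 0.0017 by edgeR). The β-cell mean of IGFBP4 thus came mostly from old monkeys, and the young β-cell mean lay below the α-cell mean of all monkeys. Its difference between the types was not tested within an age group. LMO4, named here after its values were seen, was the other lower gene, at 2.42 ± 1.66 CPM in β-cells and 7.55 ± 2.73 CPM in α-cells. In α-cells 9 of the list were tested between the ages, of which edgeR called 0, DESeq2 called 1 and 1 had an unadjusted p under 0.05. Over all 12916 genes tested there, edgeR called 0, DESeq2 called 23 and 886 had an unadjusted p under 0.05 by edgeR.

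The genes around pyruvate and lactate gave 1 higher and 6 lower in β- than in α-cells among 20 tested of 26, where 25% of all genes were called, with a median of -0.11, the same as all genes. PDK4, a kinase that switches off pyruvate dehydrogenase, was lower by -2.65 (SE 0.17, adjusted p = 5.1e-18), at 78.6 ± 34.1 CPM in β-cells and 506 ± 246 CPM in α-cells. PDK3, of the same kinase family, was lower by -1.09 (SE 0.28, adjusted p = 0.0025), and PDP1, the phosphatase that reverses the kinases, by -1.48 (SE 0.46, adjusted p = 0.011). The other 3 lower genes are named after their values were seen. They included SLC16A7, which encodes the monocarboxylate carrier MCT2 (0.174 ± 0.415 CPM in β-cells and 1.96 ± 2.17 CPM in α-cells). Beside it stood BSG, a chaperone of some monocarboxylate carriers (65.2 ± 17.2 and 109 ± 15.7 CPM), and MPC2, of the mitochondrial pyruvate carrier (244 ± 35.0 and 357 ± 38.7 CPM). BSG and MPC2 lost their calls with spike-in scaling, and MPC2 also with the highest hormone at least 3 times the next (adjusted p = 0.088). ME1, the cytosolic malic enzyme that makes pyruvate and NADPH, was higher by 1.62 (SE 0.31, adjusted p = 4.0e-05), at 88.2 ± 31.7 against 27.2 ± 5.09 CPM. Of the NADH shuttles, which carry the electrons of glycolysis into mitochondria in place of lactate dehydrogenase, 1 of 9 was higher and none lower (25% of all genes called, list median 0.13). It was GPD2, the mitochondrial glycerol phosphate dehydrogenase, at 59.8 ± 19.7 against 36.2 ± 9.78 CPM (0.73, SE 0.24, adjusted p = 0.020), and its call was lost in thinned cells (0.56, adjusted p = 0.056) and without the 5% of cells with most UMIs (0.62, adjusted p = 0.087).

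The acyl-CoA thioesterases other than ACOT7 gave 0 higher and 2 lower of 8 tested between β- and α-cells, the same share as the 25% of all genes called, with a median of 0.04, and neither reached a mean of 10 CPM in a type. They are named after their values were seen. ACOT9 was at 0.983 ± 0.963 CPM in β-cells and 4.52 ± 2.43 CPM in α-cells, and ACOT11 at 0.520 ± 0.593 and 4.70 ± 2.53 CPM. Around ornithine, proline and glutamate, the pathway of OAT, 0 were higher and 2 lower of 10 tested of 18 (25% of all genes called), with a median of 0.14. GLUL, glutamine synthetase, was lower by -0.99 (SE 0.31, adjusted p = 0.013), and this call was lost with spike-in scaling. Of the hypoxia-responsive genes, among which lactate dehydrogenase genes are often counted, 4 were higher and 1 lower of 11 tested, where 25% of all genes were called in either direction, with a median of 0.52. ENO1, an enolase gene, was higher by 0.72 (SE 0.12, adjusted p = 7.2e-06), VEGFA by 0.71 (SE 0.19, adjusted p = 0.0037) and BNIP3 by 0.55 (SE 0.15, adjusted p = 0.0034), and P4HA1 was lower by -1.20 (SE 0.32, adjusted p = 0.0028). With INS or GCG at least 3 times the next hormone, the VEGFA and BNIP3 calls were lost (0.48 and 0.54, adjusted p = 0.20 and 0.080). Between the ages, edgeR and DESeq2 called 0 genes of these 5 lists in α-cells and 0 in β-cells, and at an unadjusted p under 0.05 stood 1 pyruvate and lactate gene and 1 NADH shuttle gene in α-cells and 0 genes in β-cells. Over all genes, edgeR called 0 in α-cells and 5 in β-cells, and DESeq2 called 23 and 39. At an unadjusted p under 0.05 by edgeR stood 886 of 12916 genes in α-cells and 589 of 10628 in β-cells. The summed ductal markers ran from 8.09 to 103 CPM over the α-cells of all monkeys and from 3.67 to 78.7 CPM over the β-cells, stellate markers from 0.799 to 73.2 CPM and from 0 to 71.7 CPM, and acinar markers, of which 3 of 8 had a row, reached 1538 CPM in the α-cells and 338 CPM in the β-cells of single young monkeys with medians of at most 2.55 CPM. Without the 286 cells highest in markers of other cell types, the differences between β- and α-cells were -3.29 for LDHB, -2.98 for ACOT7 and 0.44 for OAT on the log2 scale.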

How the data were processed

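UMI counts per gene and cell of 64 libraries from 16 monkeys were used. After trimming, the authors mapped reads to the assembly Macaca_fascicularis_5.0 with TopHat2 (2.0.12 per the submitters' processing notes), assigned unique reads to genes with htseq-count and counted each UMI once, and they deposited raw counts of all picked cells. Base calling used CASAVA 1.8. Gene models limit what is counted, and a gene and an overlapping gene may share reads.

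Cells above 800 genes and 10000 UMIs were typed by their highest hormone. No doublet caller was run. Instead, cells whose highest hormone was under 3 times the next, cells above the 99th percentile of other cell types' markers, and the 5% of cells with most UMIs were left out in turn. Spike-in RNAs (95 rows, 5.41% of UMIs) were left out of library sizes. Counts were summed per monkey and type with at least 5 cells and tested in R 4.3.3 with edgeR 4.0.16 (TMM, filterByExpr, quasi-likelihood, Benjamini-Hochberg, threshold 0.05), with the monkey as a block between types, since the types came from the same animals, and with sex and age group within a type. DESeq2 1.42.0 was the other tool. Intervals, exact tests and permutations (100000 for correlations) were made in Python 3.11.15 with scipy 1.17.1. The fits were tested on simulated data.

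Named genes were the members, up to 3 genes higher and 3 lower per list between types and up to 2 between ages (largest change among calls with a mean of at least 10 CPM), and the 3 genes most like each member. The members and lists were chosen with earlier results of these data known. LDHA and 16 listed genes had no row under their symbol and were not used here. Values of 2 further listed genes are not reported here. Alternatives were no filter on low counts, DESeq2, RLE factors, spike-in scaling, no hormones, thinned cells, stricter cells, at least 20 cells per sum, other blocks and leaving out each monkey.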

Additional observations from a re-analysis of the deposited data

Results flagged for a closer look

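Of the 21 groups of 4 to 10 monkeys tested for a value that stands apart, 4 held one, where chance gives about 1 in 20 groups. LDHB in the α-cells of young male 3 was at 237 CPM where the next young monkey was at 111 CPM. It rested on 4222 UMIs in 280 cells, and the 4 libraries of that monkey ran from 185 to 269 CPM. LDHB in δ-cells stood apart in old female 2, at 73.5 CPM against 7.20 CPM in the next old monkey, and in young male 2, at 61.4 CPM against 17.1 CPM in the next young monkey. Of the LDHB UMIs in those δ-cells, 1 cell held 46.3% in old female 2 and 100% in young male 2. ACOT7 in the β-cells of young female 1 was at 30.9 CPM where the next young monkey was at 18.8 CPM, from 119 UMIs in 57 cells of which 1 cell held 33. None of these values was left out of a main result.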

How the results depend on the processing

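Of 1148 log2 fold changes of members and listed genes under an alternative fit or permutation test, 1098 kept their direction and their side of the threshold. Of the others, 25 turned direction (none of them called), 13 passed the threshold where the main value did not and 12 lost it. The 13 include ACOT7 between the ages in α-cells by the exact permutation test, whose p of 0.0012 is unadjusted. The calls of LDHB and ACOT7 between β- and α-cells and of ACOT7 between β-cells and δ- or PP-cells held under all alternatives run for them. The members called between β- and δ-cells went from 1 to 2 in thinned cells and with spike-in scaling, where OAT joined, between α- and δ-cells from 1 to 2 and between β- and PP-cells from 2 to 3 with spike-in scaling, between δ- and PP-cells from 1 to 0 in thinned cells and with no replicate block (monkey), and between the ages in α-cells from 0 to 1 with DESeq2. Without single monkeys they were from 1 to 2 between β- and δ-cells and from 0 to 1 between δ- and PP-cells. LDHB between β- and δ-cells turned to 0.31 with the highest hormone at least 3 times the next and to 0.62 with spike-in scaling, and LDHB between the ages in α-cells to 0.031 without cells high in other markers. Between the ages in β-cells, ACOT7 turned to 0.14 in thinned cells, 0.0051 without cells high in other markers, 0.72 in cells with the highest hormone at least 3 times the next, 0.030 in cells over 2000 genes and 20000 UMIs, 0.0065 with the replicate block and 0.027 in the permutation test, and OAT to 0.11 in the cells of higher hormone ratio and 0.038 without the cells of most UMIs. Without single monkeys, LDHB was from -0.22 to 0.65 between β- and δ-cells, from -0.34 to 0.053 between the ages in α-cells and from -0.57 to 0.053 in β-cells. ACOT7 between the ages in β-cells was then from -0.10 to 0.20, OAT from -0.17 to 0.057, and OAT between β- and PP-cells from -0.012 to 0.44. With the highest hormone at least 3 times the next, the relation of OAT in α- and β-cells went to an r of 0.45, with a rho of 0.77. The cause of these shifts was not tested.

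Over all genes, spike-in scaling called 6248 instead of 2549 genes between β- and δ-cells, 4348 instead of 2221 between β- and PP-cells, 5828 instead of 2999 between α- and δ-cells and 2581 instead of 852 between α- and PP-cells. With at least 20 cells per sum 6588 instead of 3222 genes were called between β- and α-cells, with a hormone ratio of 3 or more 1555 between β- and δ-cells, and between δ- and PP-cells 685 in thinned cells, 2269 without the block and 2103 with DESeq2 instead of 1334. DESeq2 called 1350 instead of 852 genes between α- and PP-cells and 39 instead of 5 between the ages in β-cells, where no filter on low counts gave 21, thinning 1, a hormone ratio of 3 or more 1 and at least 20 cells 3.

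Monkeys of different groups have the numbers 1 to 4 in the labels, and no source says what a shared number stands for. Deviations of same-numbered monkeys had correlations from -0.10 to 0.20 in α-cells (median 0.03) and from -0.17 to 0.12 in β-cells (median -0.02). In each type 8 of 16 monkeys were closest to a monkey of their own number, although most of the other monkeys had a different number. That count comes from the data and not from the design, and it was not tested. With that number as a replicate block, 0 genes were called between the ages in α-cells and 6 in β-cells, and no member. The block could not be fitted in PP-cells. The 20-cell minimum left too few monkeys for δ- and PP-cells, and the hormone ratio too few for PP-cells. The planned share of LDHA in LDHA and LDHB was not run. SLC16A1, with 68 UMIs, and PP-cells, with 6 monkeys, limit what this depth can show.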
